A study of Mus musculus with 21 samples.

Results

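Translation factors are the proteins that load a messenger RNA and the initiator tRNA on the ribosome and then move the ribosome along the message. The mouse autosomal genes for initiation factors (symbols starting Eif and a digit) and elongation factors (symbols starting Eef and a digit) were described here across 11 RNA-seq libraries of bone marrow c-kit+ cells. Members were all protein-coding genes on chromosomes 1 to 19 whose symbol fits that pattern. The rule itself uses no measured value, although the gene set was proposed with earlier results of these data known. The rule took 65 of the 54532 genes in the count table. A filter on low counts left 62 of the 65 members and 16262 genes in all. Of the other members, Eif4e1b and Eef1a2 had 0 counts in every library, and Eef1akmt3 lay between 0 and 0.53 CPM (counts scaled to library size). The rule leaves out X-linked and Y-linked factors such as Eif2s3x and Eif1ax.

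In initiation, eIF2 brings the initiator tRNA to the small ribosomal subunit, eIF3 holds that complex together, and the eIF4 factors bind the message's cap and unwind its leader. The exchange factor eIF2B recharges eIF2 with GTP. Stress kinases phosphorylate the eIF2 alpha subunit and so block that exchange, which lowers protein synthesis at large while a few messages such as Atf4 are translated more. In elongation, eEF1A delivers each aminoacyl-tRNA and eEF2 drives the ribosome forward. Blood stem and progenitor cells are known for tight control of protein synthesis, and red cell precursors depend on the heme-sensing kinase encoded by Eif2ak1 to match globin synthesis to heme.

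The libraries came from C57BL/6 mice: 3 were labelled wild type (WT), 3 Jak2V617F, 2 Asxl1-/- and 3 Asxl1-/-Jak2V617F. Jak2V617F is the activating kinase mutation of myeloproliferative neoplasms, and Asxl1 encodes a chromatin regulator often mutated beside it. Cells were marrow cells from leg bones, freed of red cells by lysis and enriched on magnetic beads for CD117, the product of Kit. The labels do not give the promoter or Cre behind either allele, the part of Asxl1 removed, or the age and number of animals. Nor do they state whether each replicate is a separate animal; the p-values therefore reflect the spread of these libraries, part of which may be technical.

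Libraries held 16198011 to 19196283 counts. Kit, which defines the sort, lay between 218.8 and 338.3 CPM in all 11 libraries. Asxl1 RNA was lower but present where the label gives a deletion: 89.0 and 97.04 CPM in Asxl1-/-, 93.5 to 100.4 CPM in Asxl1-/-Jak2V617F, 132 to 196 CPM in Jak2V617F and 161 to 164 CPM in WT. On the first principal component of all tested genes (51.5% of the variance), the 3 Jak2V617F libraries lay at one end and the other 8 at the opposite one. Their cell type markers differed as well. Summed over 12 erythroid markers the level was 4790 to 6070 CPM in Jak2V617F, 1190 to 2000 CPM in WT, 1790 and 1980 CPM in Asxl1-/- and 1630 to 2780 CPM in Asxl1-/-Jak2V617F. Summed over 6 late neutrophil markers it was 1830 to 4890 CPM in Jak2V617F against 23900 to 53600 CPM across the other libraries. Over 5 dendritic cell and MHC class II markers it was 2100 to 2890 CPM in Jak2V617F against 204 to 451 CPM elsewhere. No marker of these lists was at 0 in all libraries. In a bulk sample, fewer cells of a type and less RNA per cell cannot be told apart. By Xist and Y-linked counts, both Asxl1-/- libraries and Jak2V617F replicate 2 were male and the other 8 libraries female. The part of cell makeup and of sex in the member results was not tested beyond the values given beside them.

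The members took a larger part of all counts in each mutant genotype than in WT. They held 2.19%, 2.28% and 2.65% of counts in the WT libraries, and 3.33%, 3.50% and 3.54% in the Jak2V617F libraries. The Asxl1-/- libraries stood at 2.71% and 2.801%, and the Asxl1-/-Jak2V617F libraries at 2.72%, 2.89% and 2.91%. No mutant library fell in the WT range, and the Jak2V617F libraries were above all others. WT replicate 1 was nearest to the mutants; it was also the highest WT library for 43 of the 62 tested members. Ribosomal protein genes, which are not members, held 4.67% to 6.33% of counts in WT, 6.99% to 7.63% in Jak2V617F, 7.08% and 7.29% in Asxl1-/-, and 6.04% to 6.75% in Asxl1-/-Jak2V617F. Their order therefore differed from that of the members, with WT replicate 1 above the lowest double-mutant library.

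**Figure D1:**
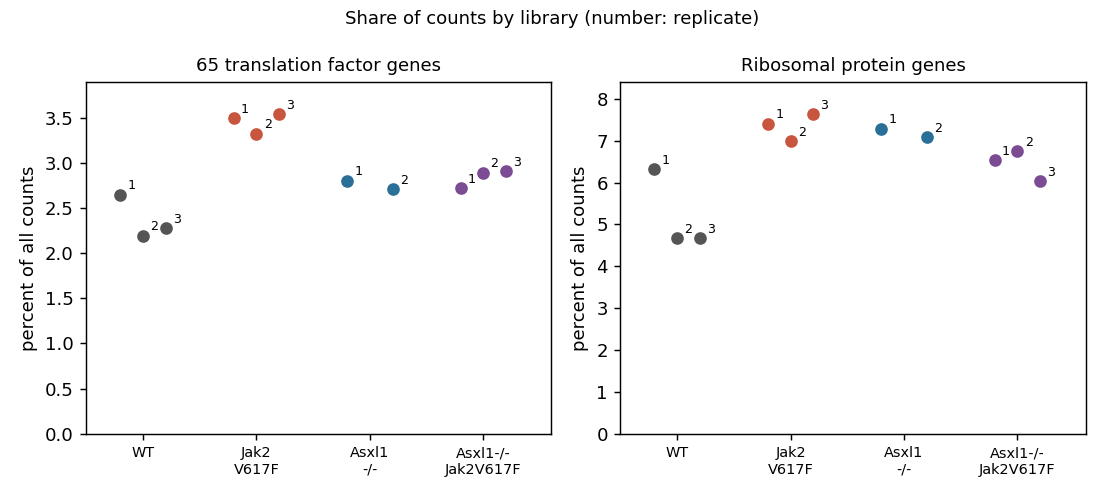
Percent of all counts in each library (y axis) held by the 65 translation factor genes (left) and by ribosomal protein genes (right), by genotype (x axis); each point is 1 library, with its replicate number. The 3 Jak2V617F libraries are highest on the left, at 3.33% to 3.54%, and all WT libraries are lowest there, at 2.19% to 2.65%.

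Each comparison was tested across all 16262 genes in 1 edgeR quasi-likelihood fit of the 11 libraries, and a gene was called where its Benjamini-Hochberg adjusted p was under 0.05. In Jak2V617F against WT, 48 of 62 members were higher (77.4%) and 4 lower (6.45%), where 24.4% of all genes tested were called higher and 29.2% lower. The median log2 fold change was 0.52 over the members and -0.05 over all genes. In Asxl1-/- against WT, 36 members were higher (58.1%) and 1 lower (1.61%), beside 11.3% of all genes higher and 11.2% lower. In Asxl1-/-Jak2V617F against WT, 32 members were higher (51.6%) and 0 lower, beside 8.3% and 6.76% of all genes. At an unadjusted p under 0.05, edgeR placed 1 member lower in that comparison, but all genes were not counted at that threshold. DESeq2 called 0 members lower, beside 8.71% of all genes. These 3 comparisons share the WT libraries, and where a member passed in one mutant and not in another, the difference itself was tested only in the direct comparisons and the interaction given further on. Of the 62 members, 28 were called higher in all 3, beside 4.27% of all genes tested, and 39 had every mutant library above every WT library, beside 9% of all genes.

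The Jak2V617F count was the steadiest: it lay between 46 and 50 higher members whichever library, scaling, filter or tool was changed. The Asxl1-/- count was not. It was 1 without Asxl1-/- replicate 1, 21 without Asxl1-/- replicate 2, and 1 with a term for sex, a term that Jak2V617F replicate 2 alone separates from the genotype. The members' median log2 difference from WT was 0.35 without replicate 1, 0.45 without replicate 2 and 0.53 with the sex term, against 0.41 in the fit without these changes, so calls were lost while the median stayed positive. The member left by the sex term was Eif1a, and the member left without replicate 1 was Eif3j2. The Asxl1-/-Jak2V617F count against WT was 13 without WT replicate 2, 15 without WT replicate 3 and 19 without Asxl1-/-Jak2V617F replicate 2.

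**Figure D2:**
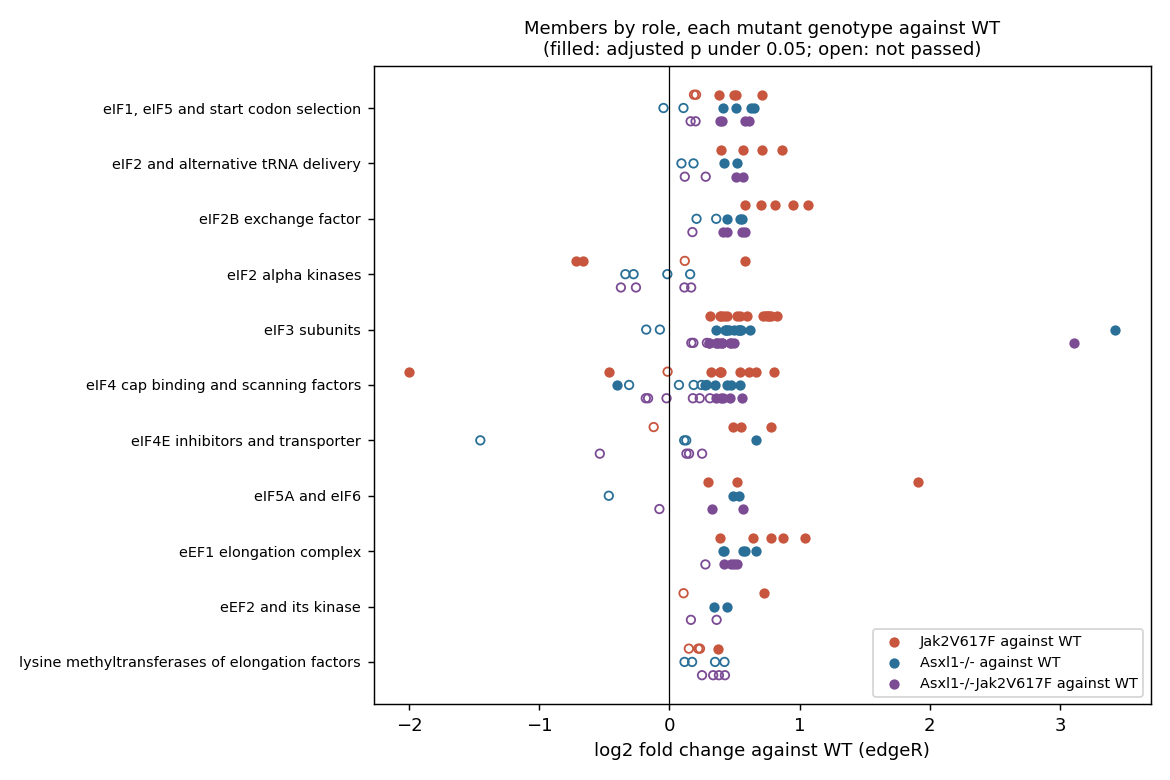
Log2 fold change against WT (x axis, edgeR) of each tested member, in rows by role, with Jak2V617F in red, Asxl1-/- in blue and Asxl1-/-Jak2V617F in purple; filled points passed an adjusted p of 0.05 and open points did not. Most points lie right of 0, and Eif4e3 in Jak2V617F (-2.0), Eif5a2 in Jak2V617F (1.91) and Eif3j2 in both Asxl1-/- genotypes (3.42 and 3.11) stand farthest out.

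Promoter letters of the members were read from RefSeq windows on GRCm38.p6 that run from 250 bases before a gene's start to 50 bases after it; 49 of the 65 members had one. They were searched on both strands for the E-box CACGTG, the ETS-type motif CCGGAAGT, the cAMP response element TGACGTCA and the TATA motif TATAAA. The E-box was in 11 of the 49 member promoters (22.4%) and in 8.12% of 15658 autosomal coding promoters, and the ETS-type motif in 8 (16.3%) against 5.67%. The cAMP response element was in 1 (2.04% against 2.48%) and TATA in 4 (8.16% against 12.9%). These are descriptions without a test, and a match is not a bound site. The 200 bases from 170 before the start are shown for Eef2 (chr10:81176461-81176660, + strand), the abundant translocase gene with 3 of the 4 motifs; for Eif5a2 (chr3:28781107-28781306, + strand), the steepest riser in Jak2V617F, with both kinds of motif; for Eif2ak1 (chr5:143817622-143817821, + strand) and Eif3d (chr15:77970795-77970994, - strand), risers with an ETS-type match; and for Eif2ak3 (chr6:70844345-70844544, + strand), which fell and holds none of the 4 in its window. Capitals mark the motif matches, and the last 30 bases follow the start.
Eef2: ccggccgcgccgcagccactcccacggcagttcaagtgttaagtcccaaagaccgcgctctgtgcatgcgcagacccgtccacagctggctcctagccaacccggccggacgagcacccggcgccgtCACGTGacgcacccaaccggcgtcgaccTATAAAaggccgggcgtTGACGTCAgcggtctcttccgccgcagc
Eif5a2: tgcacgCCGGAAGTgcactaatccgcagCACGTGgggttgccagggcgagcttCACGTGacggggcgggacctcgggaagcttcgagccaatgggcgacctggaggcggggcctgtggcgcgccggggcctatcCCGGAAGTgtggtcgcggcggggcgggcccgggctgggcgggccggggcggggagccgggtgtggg
Eif2ak1: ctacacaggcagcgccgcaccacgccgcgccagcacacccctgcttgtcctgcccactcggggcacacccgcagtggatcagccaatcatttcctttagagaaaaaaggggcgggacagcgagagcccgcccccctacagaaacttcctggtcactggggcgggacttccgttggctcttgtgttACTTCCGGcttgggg
Eif3d: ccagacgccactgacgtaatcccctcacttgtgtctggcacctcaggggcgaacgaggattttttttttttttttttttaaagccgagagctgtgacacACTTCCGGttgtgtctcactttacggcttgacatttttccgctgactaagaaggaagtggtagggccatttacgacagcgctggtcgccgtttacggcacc
Eif2ak3: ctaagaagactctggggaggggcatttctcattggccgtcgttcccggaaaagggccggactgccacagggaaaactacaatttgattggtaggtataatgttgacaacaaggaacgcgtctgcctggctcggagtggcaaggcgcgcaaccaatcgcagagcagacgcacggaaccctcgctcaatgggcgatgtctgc
In the Eif5a2 stretch the E-box stands in 2 places and the ETS-type motif in 2, whereas Eif2ak1 and Eif3d show the ETS-type motif on the opposite strand, written ACTTCCGG. No match in the Eif2ak3 window says only that these letters are not in it. Many members that rose in Jak2V617F, such as Eif2b1, Eif2b5, Eif3g and Eif5a, also hold none of the 4 in theirs. A link between motif and direction was not tested.

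The eEF1 complex delivers tRNAs during elongation. The 5 tested genes grouped with it here, Eef1e1 among them, all rose in Jak2V617F and in Asxl1-/-, beside 24.4% and 11.3% of all genes. Eef1a1 (chromosome 9, 78478449 to 78489151, - strand), which encodes the tRNA carrier itself, had the highest level per length of all members, with a mean of 2956 RPKM (CPM per kilobase of gene length) in WT. Positions are those of whole genes in the deposited table, on the mm10 genome that the submitters' processing notes name. Its CPM were 8640, 6625 and 6846 in WT, 10150, 9032 and 9789 in Jak2V617F, 10030 and 9597 in Asxl1-/-, and 8720, 9401 and 8658 in Asxl1-/-Jak2V617F. Every mutant library was above every WT library, but the gap above WT replicate 1 was small. The log2 rise was 0.39 ± 0.12 (SE) in Jak2V617F (adjusted p = 0.017) and 0.41 ± 0.13 in Asxl1-/- (adjusted p = 0.0451), and the double mutant did not pass (0.28 ± 0.12, adjusted p = 0.135). The Asxl1-/- call for Eef1a1 was lost under 12 of the 19 alternatives. Reads from its many processed copies in the genome may be shared with it, so its level is uncertain. Eef1a2, its muscle and neuron form, was at 0.

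In Jak2V617F the beta, gamma and delta subunit genes of eEF1 rose further than Eef1a1, a difference between genes that was not tested. Eef1d, the delta subunit, was at 191, 166 and 177 CPM in WT, 300.4, 325 and 352 in Jak2V617F, 239 and 236 in Asxl1-/-, and 233, 251 and 281 in Asxl1-/-Jak2V617F. No mutant library overlapped WT, and the Jak2V617F libraries were above all others. Its log2 difference from WT was 0.87 ± 0.09 in Jak2V617F (adjusted p = 1.38e-05), 0.42 ± 0.10 in Asxl1-/- (adjusted p = 0.0148) and 0.52 ± 0.09 in Asxl1-/-Jak2V617F (adjusted p = 0.00854). Eef1g, the gamma subunit, rose by 0.78 ± 0.11 in Jak2V617F, and Eef1b2, the beta subunit, by 0.64 ± 0.12. Eef1e1 encodes a small scaffold protein of the tRNA synthetase complex and had the steepest rise of the group, 1.04 ± 0.15 in Jak2V617F.

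Eef2 (chromosome 10, 81176631 to 81182498, + strand), which encodes the translocase that eEF2 kinase inhibits, was the second member by level per length; its promoter stretch holds an E-box, a TATA motif and a cAMP response element. Its CPM were 3238, 2402 and 2483 in WT, 4661, 4246 and 4517 in Jak2V617F, 3740 and 3628 in Asxl1-/-, and 3302, 3611 and 3529 in Asxl1-/-Jak2V617F. WT replicate 1 lay close under the double mutants, and Jak2V617F was above all other libraries. Eef2 rose by 0.72 ± 0.12 in Jak2V617F (adjusted p = 0.000333) and by 0.44 ± 0.13 in Asxl1-/- (adjusted p = 0.0323). The double mutant difference from WT was 0.36 ± 0.12 (adjusted p = 0.0595). Eef2k, the inhibiting kinase, passed in Asxl1-/- alone of the 3 (0.34 ± 0.09, adjusted p = 0.0252), where it was at 164 and 162 CPM against 137, 121 and 128 in WT. Among the 4 tested lysine methyltransferases of elongation factors, Eef2kmt rose in Jak2V617F (0.37 ± 0.13) and none passed in the other mutants. Of 9 listed enzymes that build hypusine on eIF5A or diphthamide on eEF2, 7 rose in Jak2V617F against WT, beside 24.4% of all genes. Dph1, which starts diphthamide synthesis, showed 0.76.

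**Figure D3:**
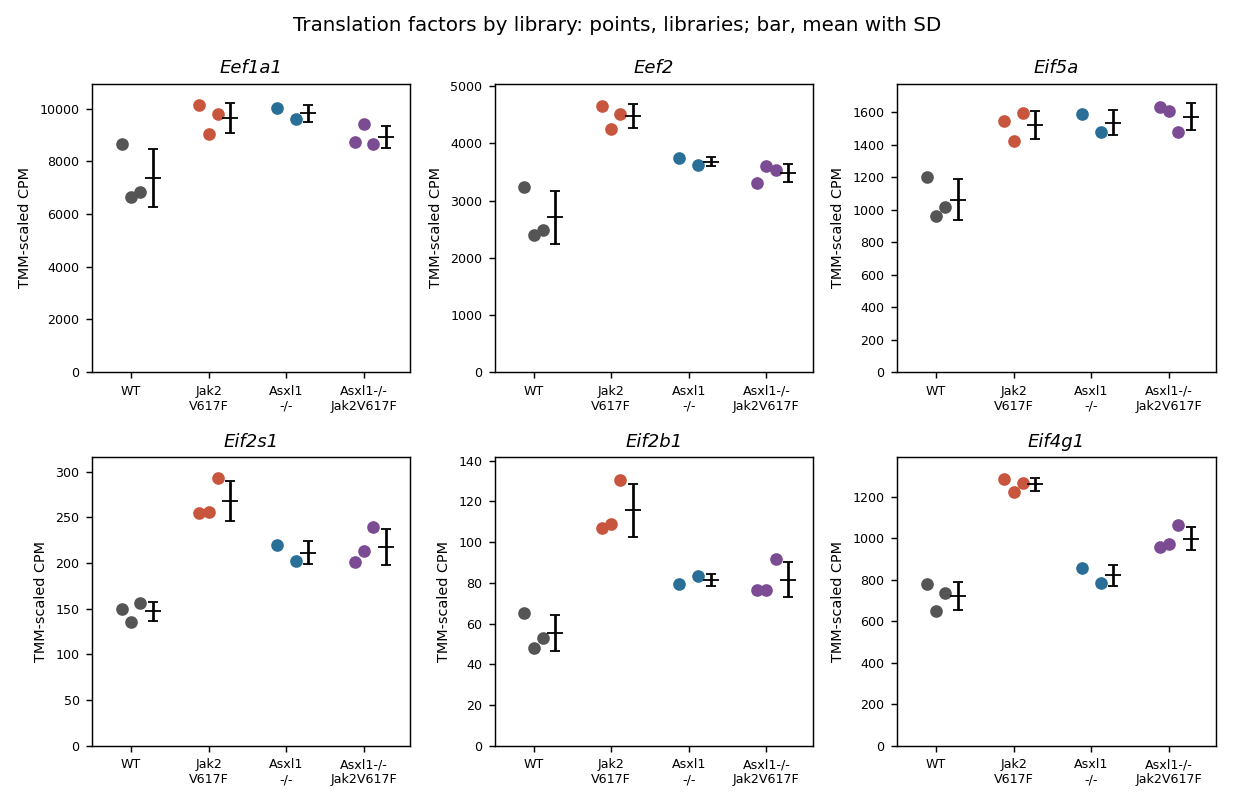
TMM-scaled CPM (y axes, each from 0) of Eef1a1, Eef2, Eif5a, Eif2s1, Eif2b1 and Eif4g1 by genotype (x axis); points are libraries, and the black bar beside them is the mean with the SD. The Jak2V617F libraries of Eef2, Eif2s1, Eif2b1 and Eif4g1 lie above all others, while Eif5a is at a like level in the 3 mutant genotypes.

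Eif1, Eif1a, Eif1b, Eif1ad, Eif5 and Eif5b were grouped together here. Of these 6 genes, 4 rose in each mutant genotype. Among all genes the share that rose was 24.4% in Jak2V617F, 11.3% in Asxl1-/- and 8.3% in the double mutant. Eif1a, which helps the scanning ribosome stop at a start codon, was at 88.2, 82.1 and 89.4 CPM in WT, 125, 115 and 126 in Jak2V617F, 128 and 119.5 in Asxl1-/-, and 134, 142 and 121 in Asxl1-/-Jak2V617F. The WT libraries were apart from all mutants, which overlapped one another. It had the smallest adjusted p of all members in the double mutant against WT (0.61 ± 0.08, adjusted p = 0.00442). Eif1b, a second gene for the start codon factor eIF1, rose in Asxl1-/- alone (0.65 ± 0.12, adjusted p = 0.00514; 0.19 ± 0.11, adjusted p = 0.165, in Jak2V617F). Eif5b, the GTPase that joins the ribosomal subunits, rose in Jak2V617F (0.71 ± 0.09) and the double mutant (0.39 ± 0.09), with -0.05 ± 0.10 in Asxl1-/- (adjusted p = 0.781). Eif5, which triggers GTP hydrolysis on eIF2, passed in none of the 3 (0.20, 0.11 and 0.16).

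The eIF2 genes carried some of the clearest differences in Jak2V617F. Eif2s1 (chromosome 12, 78861819 to 78887010, + strand), the alpha subunit that the stress kinases phosphorylate, was at 149, 136 and 156 CPM in WT, 255, 256 and 293 in Jak2V617F, 220.1 and 202 in Asxl1-/-, and 201, 213 and 239 in Asxl1-/-Jak2V617F. Each mutant was clear of WT, and Jak2V617F was clear of every other library. The log2 difference from WT was 0.86 ± 0.09 in Jak2V617F (adjusted p = 1.55e-05), 0.52 ± 0.10 in Asxl1-/- (adjusted p = 0.00626) and 0.57 ± 0.09 in the double mutant (adjusted p = 0.00713). Eif2s2, the beta subunit, rose by 0.71 ± 0.09 in Jak2V617F. Eif2a and Eif2d, which can bring tRNA to the ribosome without eIF2, rose in Jak2V617F (0.57 ± 0.11 and 0.40 ± 0.10) and passed in neither other mutant.

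All 5 eIF2B subunit genes rose in Jak2V617F, 3 rose in Asxl1-/- and 4 in the double mutant. Of all genes, 24.4%, 11.3% and 8.3% rose in those comparisons with WT. Eif2b1 (chromosome 5, 124570213 to 124579131, - strand), the alpha subunit of the exchange factor, was at 65.3, 47.8 and 52.9 CPM in WT, 107, 109 and 131 in Jak2V617F, 79.2 and 83.4 in Asxl1-/-, and 76.4, 76.55 and 91.6 in Asxl1-/-Jak2V617F. Jak2V617F lay above all other libraries and WT below all. Its rise in Jak2V617F was 1.06 ± 0.13 (adjusted p = 3.09e-05), a 2.09-fold difference. Eif2b5, the catalytic epsilon subunit, had the smallest adjusted p of the higher members in Jak2V617F against WT: 72.5, 67.0 and 78.9 CPM in WT against 128, 119.9 and 134 in Jak2V617F, or 0.81 ± 0.08 (adjusted p = 1.06e-05). In the double mutant Eif2b5 was at 93.6, 98.1 and 105.5 CPM and in Asxl1-/- at 99.7 and 98.0 CPM. Eif2b4, the delta subunit, rose in Jak2V617F (0.70 ± 0.11) but gave 0.21 ± 0.13 in Asxl1-/- (adjusted p = 0.258) and 0.18 ± 0.11 in the double mutant (adjusted p = 0.301).

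The 4 kinases of eIF2 alpha went different ways. Eif2ak1, the heme-regulated kinase of red cell precursors, was at 93.5, 79.1 and 82.2 CPM in WT, 141, 127 and 113 in Jak2V617F, 96.1 and 93.55 in Asxl1-/-, and 89.2, 96.1 and 101 in Asxl1-/-Jak2V617F. Its Jak2V617F libraries, which also had the most erythroid marker RNA, were above all others, which lay between 79.1 and 101 CPM. It rose by 0.58 ± 0.10 in Jak2V617F (adjusted p = 0.000319) and passed in no other mutant. Eif2ak3, the kinase of endoplasmic reticulum stress, was at 48.6, 51.8 and 45.9 CPM in WT, 30.5, 33.1 and 25.2 in Jak2V617F, 38.3 and 42.3 in Asxl1-/-, and 41.9, 38.05 and 42.6 in Asxl1-/-Jak2V617F. The WT libraries were above all mutants and Jak2V617F below all others. Its log2 level dropped by 0.72 in Jak2V617F (SE 0.11, adjusted p = 0.000218). Per length, Eif2ak1 made up 44.9% to 51.8% of the 4 kinases' RNA in Jak2V617F and 25.4% to 39.2% elsewhere.

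Eif2ak2, the kinase of double-stranded RNA and an interferon target, was called lower in Jak2V617F (-0.66 ± 0.25, adjusted p = 0.0464), but WT replicate 3 stood at 149.7 CPM against 81.2 and 72.6 in the other WT libraries, and without it the adjusted p was 0.146. Jak2V617F stood at 61.6, 62.1 and 67.9 CPM. The Eif2ak2 call was lost in 15 of 19 alternatives. Eif2ak4, the amino acid sensor, lay between 41.9 and 52.9 CPM in all 11 libraries and passed in no comparison. Downstream of the kinases, 20 listed targets of the integrated stress response were tested. In Jak2V617F against WT 12 were higher and 2 lower, beside 24.4% and 29.2% of all genes. In Asxl1-/- 7 were higher, beside 11.3% of all genes, and in the double mutant 9, beside 8.3%. The Asxl1-/- count of higher targets ranged from 0 to 8 over the alternatives. Atf4, the central factor of that response, rose by 0.52 in Jak2V617F (adjusted p = 0.0131), 0.66 in Asxl1-/- (adjusted p = 0.0183) and 0.72 in the double mutant (adjusted p = 0.015). Phgdh, a serine synthesis gene, rose in all 3, whereas Ddit3, which encodes CHOP, passed in none (0.27, -0.07 and 0.25). Ppp1r15a, the stress-induced eIF2 phosphatase subunit, was higher in Jak2V617F (1.55) and the double mutant (1.46), with libraries from 12.2 to 28.8 CPM in WT and 36.1 to 75.8 CPM in Jak2V617F. Of 6 other listed genes of eIF2 phosphatase and related control, 0 rose and 3 fell in Jak2V617F against WT. Against WT, 2 of them rose and 1 fell in Asxl1-/-, and 1 rose and 0 fell in the double mutant.

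The large scaffold eIF3 has 14 gene members here, with the copies Eif3j1 and Eif3j2 counted apart. Eif3j2 is among the risers counted in Asxl1-/- and the double mutant, and how reads divide between these copies is uncertain. In Jak2V617F 13 rose, in Asxl1-/- 12 and in the double mutant 11, beside 24.4%, 11.3% and 8.3% of all genes. Eif3b, a core subunit, was at 438, 357 and 403 CPM in WT, 659, 628 and 685 in Jak2V617F, 558 and 523.5 in Asxl1-/-, and 548, 549.7 and 591 in Asxl1-/-Jak2V617F. Mutants and WT did not overlap, and Jak2V617F was highest. Its rise was 0.72 ± 0.09 in Jak2V617F (adjusted p = 4.2e-05) and 0.50 ± 0.09 in the double mutant (adjusted p = 0.00882). Eif3g, which binds RNA, rose by 0.78 ± 0.09 and Eif3d, a cap-binding subunit, by 0.76 ± 0.10 in Jak2V617F. Eif3c, another core subunit, rose by similar amounts in the 3 mutants (0.42, 0.35 and 0.41). Eif3h was higher in Asxl1-/- (356 and 341 CPM) than in any other library, at 0.55 ± 0.09 against WT (adjusted p = 0.00303). Eif3a, the largest subunit, and Eif3j1 did not pass in Asxl1-/-. Eif3a was at 578 and 552.5 CPM there against 618, 611 and 691 in WT (-0.18 ± 0.11, adjusted p = 0.252), with 818, 819 and 877 CPM in Jak2V617F (0.39 ± 0.10, adjusted p = 0.00484). Eif3j1 gave -0.07 ± 0.22 in Asxl1-/- (adjusted p = 0.84).

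Eif3j1 and Eif3j2 are near-identical copies of the gene for the loosely bound j subunit, and their split of reads differed between genotypes. Eif3j2 was at 2.57, 2.31 and 3.56 CPM in WT and 5.64, 4.22 and 4.27 in Jak2V617F, but at 28.65 and 31.8 in Asxl1-/- and 29.2, 34.7 and 8.67 in Asxl1-/-Jak2V617F. Asxl1-/-Jak2V617F replicate 3 was far below its group and still above all libraries with intact Asxl1. The fitted log2 differences from WT were 3.42 ± 0.48 in Asxl1-/- (adjusted p = 0.00233) and 3.11 ± 0.45 in the double mutant (adjusted p = 0.00683). Eif3j2 held 21.4% and 28% of the reads of both copies in Asxl1-/-, 25.0%, 27.4% and 5.4% in Asxl1-/-Jak2V617F, and 2.34% to 3.57% in the other 6 libraries. With the copies summed, Asxl1-/- did not pass against WT (0.29 ± 0.14, adjusted p = 0.15), Jak2V617F did (0.76 ± 0.12, adjusted p = 0.000305), and the double mutant was lower than Jak2V617F (-0.35 ± 0.12, adjusted p = 0.0368), the reverse of Eif3j2 alone (2.36 ± 0.43). Eif3j1 lies on chromosome 2, as does Asxl1, and Eif3j2 lies on chromosome 18. Whether these positions bear on the pattern was not tested. How the counting divided reads between the copies is not given in the sources used here, and the part of that division in this pattern was not tested.

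The eIF4 group holds the cap-binding complex and its helper factors, and 8 of its 11 tested genes rose while 2 fell in Jak2V617F. Among all genes 24.4% rose and 29.2% fell there. Eif4g1, the scaffold that bridges cap and ribosome, was at 779, 650.1 and 737 CPM in WT, 1288, 1225 and 1266 in Jak2V617F, 857 and 786 in Asxl1-/-, and 958, 973 and 1062 in Asxl1-/-Jak2V617F. Asxl1-/- sat just above WT, the double mutant higher, and Jak2V617F highest, with no overlap between these groups. The Eif4g1 differences from WT were 0.80 ± 0.09 (adjusted p = 2.22e-05), 0.19 ± 0.10 (adjusted p = 0.201) and 0.47 ± 0.09 (adjusted p = 0.0114) for Jak2V617F, Asxl1-/- and the double mutant. Its relative Eif4g3 went the other way: 211, 243 and 222 CPM in WT, 159, 174 and 157 in Jak2V617F, 159.5 and 180.2 in Asxl1-/-, and 233, 219.5 and 212 in Asxl1-/-Jak2V617F. The single mutants were both below WT, and the double mutant overlapped WT. Eif4g3 fell by 0.46 in Jak2V617F (SE 0.08, adjusted p = 0.00059) and by 0.41 in Asxl1-/- (SE 0.09, adjusted p = 0.0118), and was the 1 member called lower there.

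Eif4e3 (chromosome 6, 99625135 to 99666771, - strand) was the member that fell most. It encodes an atypical cap-binding protein of the eIF4E family. The gene was at 29.65, 32.0 and 30.5 CPM in WT, 7.57, 8.39 and 7.07 in Jak2V617F, 31.3 and 33.3 in Asxl1-/-, and 26.9, 30.8 and 23.5 in Asxl1-/-Jak2V617F. The Jak2V617F libraries were far below the other 8, and the remaining genotypes overlapped or lay close together. The log2 difference was -2.0 ± 0.13 in Jak2V617F against WT (adjusted p = 4.12e-07), with 0.07 ± 0.13 in Asxl1-/- (adjusted p = 0.726) and -0.18 ± 0.12 in the double mutant (adjusted p = 0.307). The same libraries had the least granulocyte and monocyte marker RNA: 694 to 1230 CPM over 6 primary granule genes against 10000 to 21300 CPM elsewhere. Whether Eif4e3 follows those cells was not tested. Eif4e itself, the main cap-binding protein, rose in all 3 mutants (0.61 ± 0.08, 0.44 ± 0.09 and 0.40 ± 0.08). Per length, Eif4e3 supplied 5.25% to 6.68% of eIF4E family RNA in Jak2V617F and 18.0% to 29.0% in the other libraries.

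Of the eIF4A helicases that unwind leaders, Eif4a1 rose and Eif4a2 did not pass in any of the 3. Eif4a1 was at 881, 748 and 786 CPM in WT, 1092, 1146 and 1283 in Jak2V617F, 1224 and 1119 in Asxl1-/-, and 1181, 1219 and 1149 in Asxl1-/-Jak2V617F. The 3 mutant genotypes overlapped fully and lay above WT, at 0.54, 0.54 and 0.56 on the log2 scale with SEs of 0.09 to 0.10. Eif4a2 gave -0.01, -0.31 and -0.16 (adjusted p = 0.914, 0.0708 and 0.278). Eif4a1 made up 69.5% to 75.1% of the pair per length in WT and 77.2% to 83.2% in the mutants. Eif4a3, the helicase of the exon junction complex, rose in all 3 (0.38, 0.47 and 0.41), and Eif4b, a helicase cofactor, rose in Jak2V617F (0.66 ± 0.10).

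**Figure D4:**
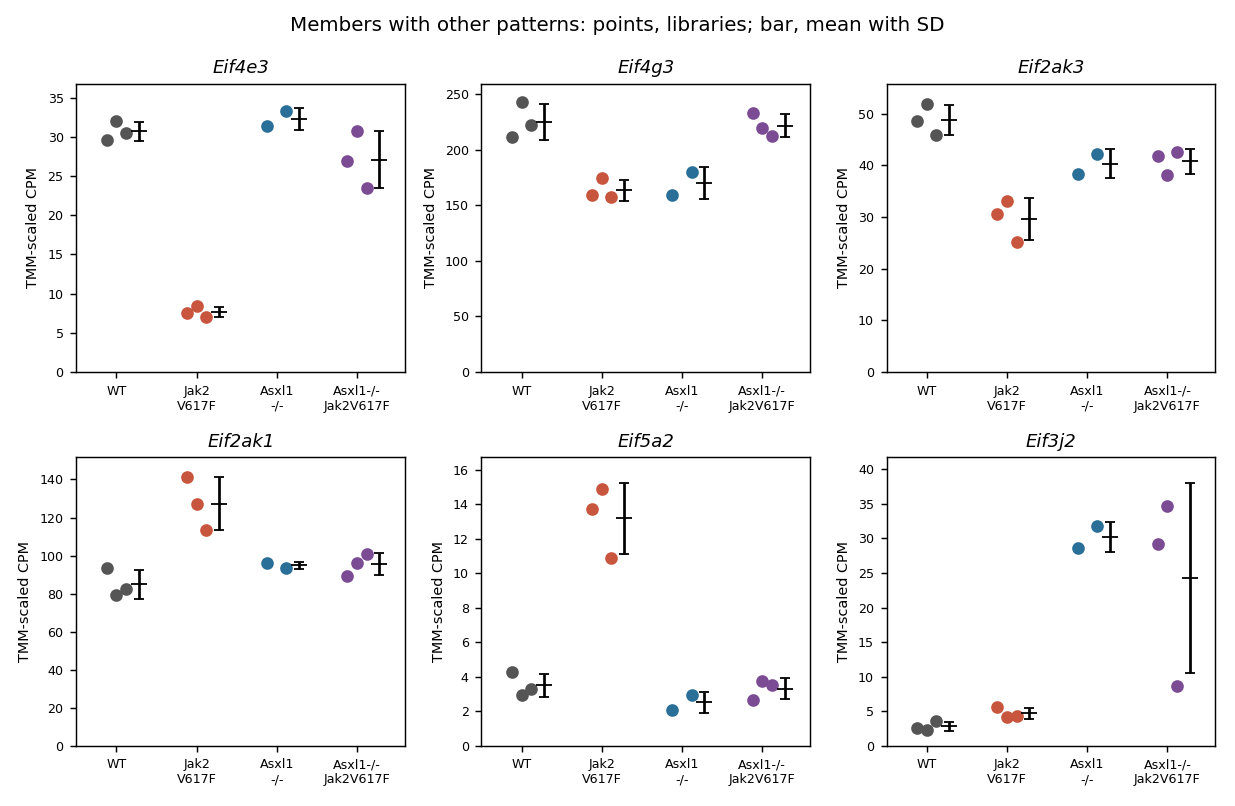
TMM-scaled CPM (y axes, each from 0) of Eif4e3, Eif4g3, Eif2ak3, Eif2ak1, Eif5a2 and Eif3j2 by genotype (x axis); points are libraries, and the black bar is the mean with the SD. The Jak2V617F libraries are apart from all others for Eif4e3 (7.07 to 8.39 CPM) and Eif5a2 (10.9 to 14.9 CPM), and Eif3j2 is high in the Asxl1-/- libraries and in 2 of 3 Asxl1-/-Jak2V617F libraries.

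Among the repressors of eIF4E, 2 of 3 rose in Jak2V617F, beside 24.4% of all genes. Eif4ebp1, an inhibitor that mTOR inactivates, was at 64.96, 48.9 and 54.5 CPM in WT, 123, 77.1 and 88.8 in Jak2V617F, 89.9 and 88.0 in Asxl1-/-, and 66.3, 74.5 and 59.5 in Asxl1-/-Jak2V617F. Both single mutants were above WT and the double mutant overlapped it. Eif4ebp1 rose by 0.78 ± 0.17 in Jak2V617F (adjusted p = 0.00208) and 0.66 ± 0.18 in Asxl1-/- (adjusted p = 0.0253), with 0.25 ± 0.17 in the double mutant (adjusted p = 0.312). Eif4ebp2, the more abundant inhibitor per length, and the transporter gene Eif4enif1 rose in Jak2V617F alone (0.49 ± 0.08 and 0.55 ± 0.08). Eif4ebp3 stayed at or under 1.01 CPM and passed in no comparison. Among 16 listed mTOR and MNK pathway genes, 4 rose and 2 fell in Jak2V617F against WT, where 24.4% of all genes rose and 29.2% fell, so the share that rose was near that of all genes. Mknk2, a kinase that phosphorylates eIF4E, rose by 0.58 (adjusted p = 0.000677) and Larp1, a repressor of terminal oligopyrimidine messages, by 0.60 (adjusted p = 0.000189). Mtor gave -0.09 (adjusted p = 0.303).

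Eif5a, whose product eases the joining of prolines, was at 1204, 964.5 and 1017 CPM in WT, 1548, 1427 and 1596 in Jak2V617F, 1592 and 1481 in Asxl1-/-, and 1635, 1607 and 1479 in Asxl1-/-Jak2V617F. All mutants were above WT and overlapped each other, at 0.52, 0.53 and 0.57 on the log2 scale. Its relative Eif5a2 (chromosome 3, 28781276 to 28798846, + strand) was rare, has both E-boxes and ETS-type motifs in its promoter stretch, and passed against WT in Jak2V617F only. Eif5a2 was at 4.25, 2.93 and 3.315 CPM in WT, 13.7, 14.9 and 10.9 in Jak2V617F, 2.10 and 2.96 in Asxl1-/-, and 2.64, 3.78 and 3.54 in Asxl1-/-Jak2V617F. The 3 Jak2V617F libraries were apart from the other 8, which overlapped by genotype. Its log2 difference from WT was 1.91 ± 0.24 (adjusted p = 4.5e-05), the steepest rise of the members in Jak2V617F, yet it supplied only 0.32% to 0.49% of eIF5A RNA per length there. Eif6, which keeps free large subunits apart, rose in all 3 mutants (0.30, 0.48 and 0.33).

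Beyond the members, 6 of 9 tested termination, recycling and rescue genes rose and 1 fell in Jak2V617F against WT. In that comparison 24.4% of all genes rose and 29.2% fell. Abce1, which splits finished ribosomes, rose by 0.90 (adjusted p = 5.38e-06), and the release factor genes Gspt1 and Etf1 by 0.87 and 0.80. Among 6 listed genes of poly(A) tail binding and its partners, 1 rose and 1 fell in Jak2V617F against WT. Pabpc1, the poly(A)-binding protein that contacts eIF4G, gave 0.20 in Jak2V617F (adjusted p = 0.144) and rose in Asxl1-/- (0.40, adjusted p = 0.0348) and the double mutant (0.38, adjusted p = 0.0386).

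Many of the members that were higher in Jak2V617F than in WT were lower in the double mutant than in Jak2V617F. In Asxl1-/-Jak2V617F against Jak2V617F, 26 of 62 members were lower (41.9%) and 4 higher (6.45%), where 19.8% of all genes were lower and 24.5% higher. The median was -0.20 over the members and -0.01 over all genes. All 26 had been called higher in Jak2V617F against WT, a comparison that shares the Jak2V617F libraries, and 14 of them were still higher in the double mutant than in WT. Eif5a2 fell by 1.99 (SE 0.24, adjusted p = 4.68e-05), Eif4enif1 by 0.40 (SE 0.08, adjusted p = 0.00205), Eif2b4 by 0.53 (SE 0.11, adjusted p = 0.00282) and Eif2b5 by 0.36 (SE 0.08, adjusted p = 0.00349). Eif4ebp2, Eif2ak1, Eif2b1, Eef1d, Eif4g1 and Eef1e1 followed, with falls of 0.34 to 0.55. The 4 higher members were Eif4e3 (1.82 ± 0.13, adjusted p = 8.8e-07), Eif4g3 (0.44 ± 0.08), Eif2ak3 (0.46 ± 0.11) and Eif3j2. The erythroid markers fell over the same libraries, 11 of 12 of them past the threshold. The lower count was 11 without Asxl1-/-Jak2V617F replicate 1, 17 without its replicate 2 and 16 without Jak2V617F replicate 3, while Eif5a2, Eif4e3, Eif2b1, Eif2ak1 and Eif2ak3 stayed past the threshold under all 19 alternatives.

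By roles, the lower calls covered 4 of 5 eIF2B genes, 3 of 4 genes of eIF2 and alternative tRNA delivery, and 3 of 4 genes of eIF4E inhibition and transport. They also covered 3 of 5 genes of the eEF1 group, Eef1e1 among them, and 5 of 14 eIF3 genes. In this comparison 19.8% of all genes were called lower. Of the 28 members called higher than WT in all 3 mutants, 11 were lower in the double mutant than in Jak2V617F and 17 did not pass, with differences from -0.22 to 0.11. Those 17 include Eif5a (0.05 ± 0.10, adjusted p = 0.736), Eif4a1 (0.01 ± 0.09, adjusted p = 0.933) and Eif3c (-0.01 ± 0.08, adjusted p = 0.921).

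Whether Asxl1 loss acted differently on the 2 backgrounds was tested as an interaction, which uses all 4 genotypes. It passed for 46 of 62 members: 43 were lower on the Jak2V617F background (69.4%, beside 17.9% of all genes) and 3 higher (4.84%, beside 23.7%). The median was -0.54 over the members and 0.10 over all genes. For Eif3g the effect of Asxl1 loss was 0.62 ± 0.10 on the WT background and -0.31 ± 0.09 on the Jak2V617F background, a difference of -0.93 ± 0.14 (adjusted p = 0.000481). For Eif2b1 the effects were 0.56 and -0.50, a difference of -1.06 ± 0.19 (adjusted p = 0.00116). Eif4e3 went from 0.07 to 1.82 (1.74 ± 0.18, adjusted p = 5.29e-05), and Eif4g3 from -0.41 to 0.44 (0.85 ± 0.12, adjusted p = 0.000424). With a term for sex the lower count was 23 and the higher count 3, while the members' median was -0.65.

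**Figure D5:**
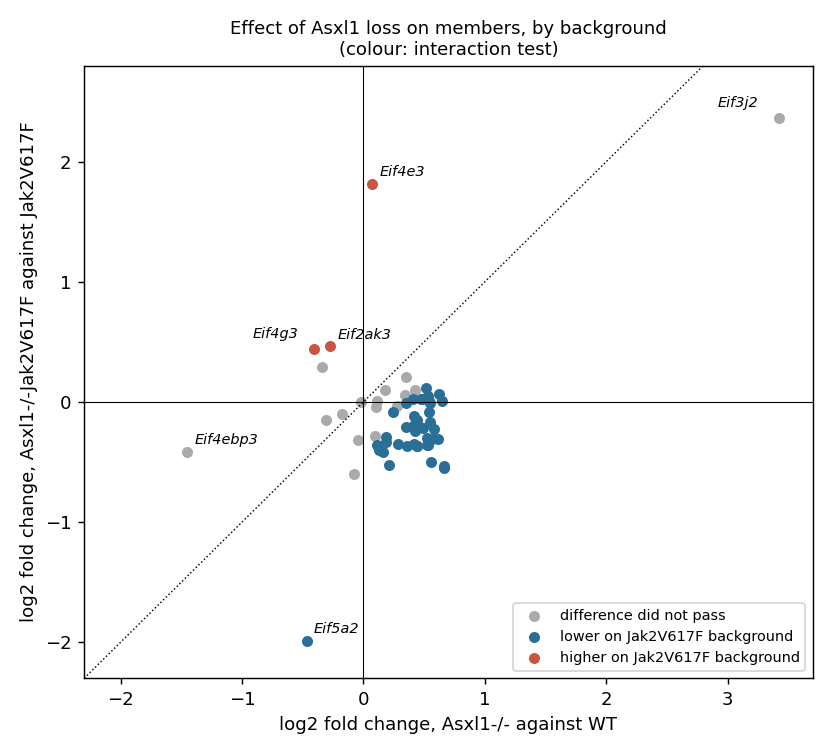
Log2 fold change of each tested member for Asxl1-/- against WT (x axis) and for Asxl1-/-Jak2V617F against Jak2V617F (y axis), coloured by the interaction test; the dotted line marks equal effects. Most members lie right of 0 and under the line (43 in blue), and Eif4e3, Eif4g3 and Eif2ak3 (red) lie above it.

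Asxl1-/-Jak2V617F was also compared with Asxl1-/-, which asks what Jak2V617F adds when Asxl1 is lost. Of 62 members 3 were higher (4.84%) and 0 lower, near the 3.31% and 2.22% of all genes, and the median was 0.00. Both Asxl1-/- libraries were male and the 3 double-mutant libraries female, so this pair alone cannot tell genotype from sex. With the sex term, which rests on Jak2V617F replicate 2, the members' median was -0.11, beside -0.01 over all genes. Under that term 17 of the 62 members had a positive difference. Eif3a (0.47 ± 0.11, adjusted p = 0.0311), Eif5b (0.44 ± 0.10, adjusted p = 0.0325) and Eif4g3 (0.38 ± 0.09, adjusted p = 0.0364) were the 3. None of them passed without Asxl1-/-Jak2V617F replicate 2, without either Asxl1-/- library, or with a sex term. At an unadjusted p under 0.05 edgeR placed 5 members lower, but all genes were not counted at that threshold. DESeq2 called 1 member lower, beside 3.74% of all genes. It was Eif1b (-0.43, adjusted p = 0.0256), which gave -0.45 ± 0.12 by edgeR (adjusted p = 0.0535).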

How the data were processed

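RNA-seq of 11 libraries was analysed, as raw counts per Ensembl gene from the table the authors deposited; gene lengths and positions are also theirs. Per the submitters' processing notes the tools included featureCounts 1.5.0-p3 and HISAT2 2.0.5, on mm10. Strandedness and the handling of reads with several matches: not given in the sources used here. For that reason genes with near-identical copies, overlaps or antisense partners have uncertain counts. Another 10 samples of chromatin assays were not analysed here.

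Genes were filtered with filterByExpr by group. Counts were scaled by TMM and fitted with edgeR 4.0.16 (R 4.3.3), quasi-likelihood, robust, all libraries in 1 model of genotype, with Benjamini-Hochberg adjustment over 16262 genes. The SE of a log2 fold change is its size divided by the root of the F statistic. CPM use TMM-scaled library sizes, and RPKM divide CPM by gene length in kilobases. Chi-square per degree of freedom between replicates was 8.44 to 37, where sampling noise alone gives about 1, and each counted as its own sample. Sex was read from Xist and Y-linked counts. Scripts were tested on simulated counts.

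The members and gene lists were chosen with earlier results of these data known. Named per comparison are up to 10 higher and 10 lower called members of smallest adjusted p without overlap between groups, the members of extreme change, and a set list of core factors. Other genes were named from the lists, up to 4 a list by smallest adjusted p, with Atf4, Ddit3, Ppp1r15a, Mtor, Mknk2 and Pabpc1 always given. Alternatives were 2 other scalings, no filter or a stricter one (over 1 CPM in 3 libraries), a replicate block, a sex term, the compared groups alone, DESeq2 1.42.0 and each library left out. Summing Eif3j1 and Eif3j2 was chosen after seeing the data.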

Additional observations from a re-analysis of the deposited data

Results flagged for a closer look

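For 46 members the effect of Asxl1 loss differed between the Jak2V617F and WT backgrounds by edgeR's interaction test, and 11 are given here: the 10 of smallest adjusted p and the third of those with a positive difference. On the log2 scale, the effect on the Jak2V617F background minus that on the WT background was 1.74 for Eif4e3, 0.85 for Eif4g3 and 0.74 for Eif2ak3. It was -0.93 for Eif3g, -0.81 for Eif2b5, -0.82 for Eif2s1, -0.56 for Eif4e2, -0.88 for Eif3d, -1.06 for Eif2b1, -0.77 for Eef1d and -0.88 for Eef1g. The erythroid, granulocyte and MHC class II markers also gave interactions (10 of 12 erythroid genes lower, 6 of 6 primary granule genes higher, 5 of 5 MHC class II and dendritic genes lower). Their part in the member differences was not tested.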

How the results depend on the processing

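Called members kept their direction and their side of the threshold under every alternative for 49 of 52 in Jak2V617F against WT, 14 of 30 in Asxl1-/-Jak2V617F against Jak2V617F, 12 of 32 in Asxl1-/-Jak2V617F against WT, 23 of 46 for the interaction, and 0 of 37 in Asxl1-/- against WT and 0 of 3 in Asxl1-/-Jak2V617F against Asxl1-/-. For Asxl1-/- against WT, the sex term left 1 higher member and 0 lower, with the members' median at 0.53 against 0.41, and upper-quartile scaling and the replicate block each gave 2 lower, Eif4a2 joining Eif4g3. For Asxl1-/-Jak2V617F against Asxl1-/-, the sex term and the fit of the compared groups alone gave 0 higher, and upper-quartile scaling, no filter, the compared groups alone and DESeq2 each gave 1 lower, Eif1b. The interaction had 23 lower members with the sex term, with the median at -0.65 against -0.54. Leaving out 1 library gave 11 to 30 lower in Asxl1-/-Jak2V617F against Jak2V617F; 1 to 41 higher and 0 to 2 lower in Asxl1-/- against WT; 13 to 39 higher in Asxl1-/-Jak2V617F against WT; and 0 to 3 higher and 0 to 1 lower in Asxl1-/-Jak2V617F against Asxl1-/-. With 1 Asxl1-/- library left, that library is assumed to vary like the other groups. Eif3j2 in Asxl1-/-Jak2V617F against Jak2V617F reversed to -0.35 when both copies were summed. Upper-quartile scaling moved the median of all genes in Asxl1-/-Jak2V617F against Jak2V617F from -0.01 to -0.14 and the members' from -0.20 to -0.33, with 20.4% of all genes higher and 27.9% lower. In Jak2V617F against WT it gave 27.9% higher and 26.6% lower, in Asxl1-/- against WT 8.05% and 13.2%, and in Asxl1-/-Jak2V617F against WT 5.71% and 8.46%. Deviations of same-numbered replicates from their group means correlated at -0.20 to 0.17. Differently numbered replicates were not compared in this way, so whether the numbers pair samples cannot be told from these values. With the replicate block, 47 members were higher in Jak2V617F against WT and 26 lower in Asxl1-/-Jak2V617F against Jak2V617F. Against WT, 34 were higher in Asxl1-/- and 33 in Asxl1-/-Jak2V617F. The block gave 2 higher in Asxl1-/-Jak2V617F against Asxl1-/- and 42 lower for the interaction. The cause of these changes was not tested. The depth limits Eif4ebp3, Eif5a2 and Eef1akmt3, which have few counts.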
